A study of Mus musculus with 16 samples.

Results

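The genes described here are the splicing factors and heterogeneous nuclear ribonucleoproteins (hnRNPs) measured in cultured mouse cortical neurons. They were the gene symbols that start with Srsf and a digit, Hnrnp, Sf3a or Sf3b and a digit, or Snrp, together with Srek1 and Nono, and that had a count of at least 10 in at least 4 libraries. Of 55 symbols with such a name, 54 met the count minimum, out of 16934 genes in the table. They comprised 12 SR proteins (Srek1 counted among them), 20 hnRNPs, 9 subunits of the SF3A and SF3B complexes, 12 proteins of the small nuclear ribonucleoproteins (snRNPs), and Nono. The member nearest the minimum was Srsf12, with a count of at least 10 in 8 libraries and 0 in 6. The symbol left out was Hnrnpa1l2-ps2, with a count of at least 10 in 1 library and 0 in 15. All 54 members were among the 13139 genes that passed the filter on low counts and were tested.

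Splicing removes introns from newly made transcripts. The snRNPs are the core of the spliceosome, and most of them hold a small RNA inside a ring of Sm proteins. The U1 snRNP reads the start of the intron, and the U2 snRNP, with its SF3A and SF3B complexes, reads the branch point. SR proteins mostly favour the use of exons they bind, hnRNPs often oppose it, and many members of both families also act in RNA export, stability and translation. Neurons and glia use different sets of alternative exons, and neurons make an Sm protein of their own, SmN, from the imprinted gene Snrpn.

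The neurons came from C57BL/6 embryos of embryonic days 15 to 16 and were grown for 14 days. Some received aggregated α-synuclein, a presynaptic protein found in Lewy bodies, as fibrils tagged with the dye Atto488, at 0.1 µM for 16 h. Loaded and untreated neurons were then kept for 6 h with microglia, the brain's resident immune cells, or without them. This gave 4 groups of 4 libraries: neurons alone and co-cultures with microglia, each either untreated or loaded with fibrils. The cells carried no stated genetic change. The labels call the samples primary neurons but do not say that neurons were separated from microglia before RNA was isolated, nor that libraries came from separate cultures or animals. Spread among libraries, on which the p-values rest, may thus be technical. Libraries were made from the 3′ ends of transcripts, so a count does not scale with gene length. Levels of different genes can be set side by side only roughly, since shared or overlapping 3′ ends may add counts. Exon use itself was not measured.

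Total counts were 6511516 to 13986374 per library, and the members together held 52472 to 146949 of them. Rn45s, a ribosomal RNA precursor, took 9.35% to 26.8%. Over all genes tested, libraries of one group differed widely, with a common biological coefficient of variation of 1.17. It was not worked out for the members alone. Markers of other cell types differed between the groups. The oligodendrocyte lineage list summed to 1114 to 2156 CPM (counts scaled to a library's size, edgeR's unit) in untreated neurons alone, 1491 to 3084 in loaded ones alone, 4194 to 8321 in untreated co-cultures and 6104 to 9871 in loaded co-cultures. None of its 12 genes was at 0 in any library. The list of cell division genes summed to 275 to 705, 282 to 1018, 1653 to 2228 and 633 to 1677 CPM in the same order. Neuronal identity genes summed to 2867 to 6906, 1259 to 6873, 954 to 2650 and 1009 to 1681 CPM, and the astrocyte list to 2304 to 7007, 3188 to 7400, 1331 to 6322 and 806 to 3482 CPM. The microglial list summed to 4.92 to 41.0 CPM in neurons alone and to 601 and 1209 CPM in replicate 1 of each co-culture group, against 11.4 to 69.8 CPM in the other 6 co-cultures. Its defining genes P2ry12 and Tmem119 were at 0 in all 16 libraries.

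The 54 members took up a larger share of the transcripts in every co-culture than in any culture without microglia. Leaving out Rn45s, they made up 0.739%, 0.731%, 0.881% and 0.814% of counts in the 4 libraries of untreated neurons alone and 0.754%, 0.694%, 0.848% and 0.724% in loaded neurons alone. With microglia the share was 1.27%, 1.18%, 1.38% and 1.11% in untreated neurons and 1.13%, 1.26%, 1.33% and 1.23% in loaded neurons. The group means were 0.791% ± 0.071, 0.755% ± 0.066, 1.24% ± 0.115 and 1.24% ± 0.084 (SD, n = 4 each). The 8 co-cultures lay above the 8 libraries of neurons alone, while loaded and untreated libraries overlapped in both kinds of culture. Without the 2 co-cultures rich in microglial transcripts the co-culture range was again 1.11% to 1.38%. The oligodendrocyte and cell division lists were higher and the neuronal identity list lower in the same co-cultures, and their part in this difference was not tested. In such bulk samples a change in how many cells of a type are present and a change in RNA per cell cannot be told apart.

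**Figure D1:**
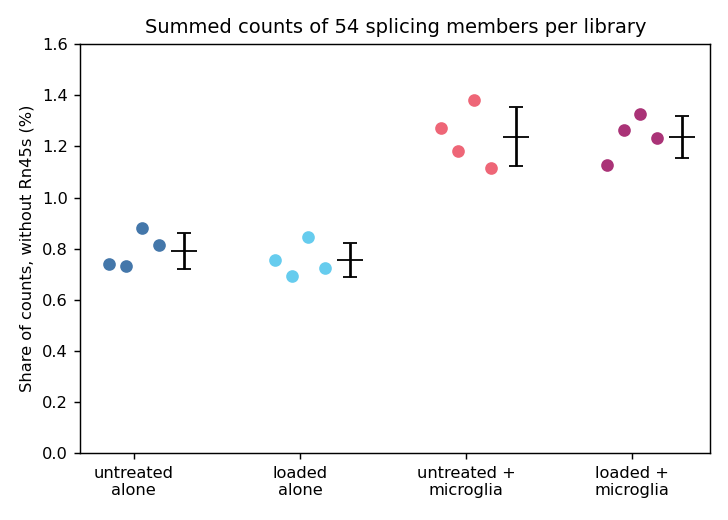
Share of each library's counts, Rn45s left out, that fell on the 54 splicing members (y axis, percent, from 0) in the 4 groups of 4 libraries (x axis); points are libraries, and bars beside them show the mean and SD. The 8 co-cultures sit between 1.11% and 1.38% and the 8 libraries of neurons alone between 0.694% and 0.881%.

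By family, the sums of the SR and hnRNP members separated the cultures with microglia from those without, and the sums of the SF3 and snRNP families overlapped. The SR members summed to 1273 ± 113 CPM in untreated neurons alone, 1059 ± 87.0 in loaded ones alone, 1965 ± 290 in untreated co-cultures and 1742 ± 162 in loaded co-cultures (SD, n = 4 each). Over all 8 libraries a side they ran from 979 to 1363 CPM alone and from 1508 to 2217 CPM in co-culture, with no overlap. The hnRNPs summed to 3377 ± 381, 3526 ± 496, 5045 ± 367 and 5605 ± 295 CPM in the same order, at 3040 to 4240 CPM alone and 4565 to 5994 CPM in co-culture, also without overlap. The SF3 subunits stood at 860 ± 98.2, 889 ± 134, 1050 ± 161 and 1104 ± 74.6 CPM, and the snRNP proteins at 1255 ± 263, 1298 ± 154, 1583 ± 265 and 1448 ± 222 CPM. For the last 2 families the ranges with and without microglia were 891 to 1274 and 718 to 1042 CPM (SF3) and 1197 to 1933 and 952 to 1576 CPM (snRNP). The snRNP sum includes Snrpn, which ran the other way; without it the sum was 1108 to 1760 CPM with and 762 to 1183 CPM without microglia, and 7 of the 8 co-cultures lay above all 8 libraries of neurons alone.

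Gene by gene, the effect of microglia was first taken as the mean of its effects on untreated and on loaded neurons (edgeR quasi-likelihood test, p adjusted by Benjamini and Hochberg over all 13139 genes, called at an adjusted p under 0.05). In this averaged comparison 7 members rose and 1 fell with microglia. The 8 are 14.8% of the members. Of all genes tested, 2.19% were called, 1.22% as higher and 0.974% as lower. Shares of all genes, here and below, include scarce genes and were not matched to the members in level. The fitted log2 change was above 0 for 51 of 54 members and for 48.6% of all genes. Its median was 0.63 over the members (a 1.55-fold higher level) and -0.03 over all genes. At an unadjusted p under 0.05, 26 members were higher and 1 lower, where 7.72% of all genes were higher and 8.79% lower. All 20 hnRNPs lay above 0 (median 0.71), as did 11 of 12 SR members (median 0.69), 9 of 9 SF3 subunits (median 0.30), 10 of 12 snRNP proteins (median 0.62), and Nono. Without the 2 microglia-rich co-cultures 5 members were called, where 1.12% of all genes were: Srek1, Srsf1, Hnrnpa3 and Hnrnpd of the 8, and Hnrnpab. Leaving out any 1 of the 16 libraries left 2 to 7 members and 158 to 333 of all genes called, against 288 genes with all libraries. Srek1 and Hnrnpa3 were among the called members each time. The other calls were lost without some single libraries: Srsf3 without 8 of the 16, Hnrnpdl and Srsf1 without 10, Hnrnpd and Snrpn without 11, and Snrpe without 14.

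**Figure D2:**
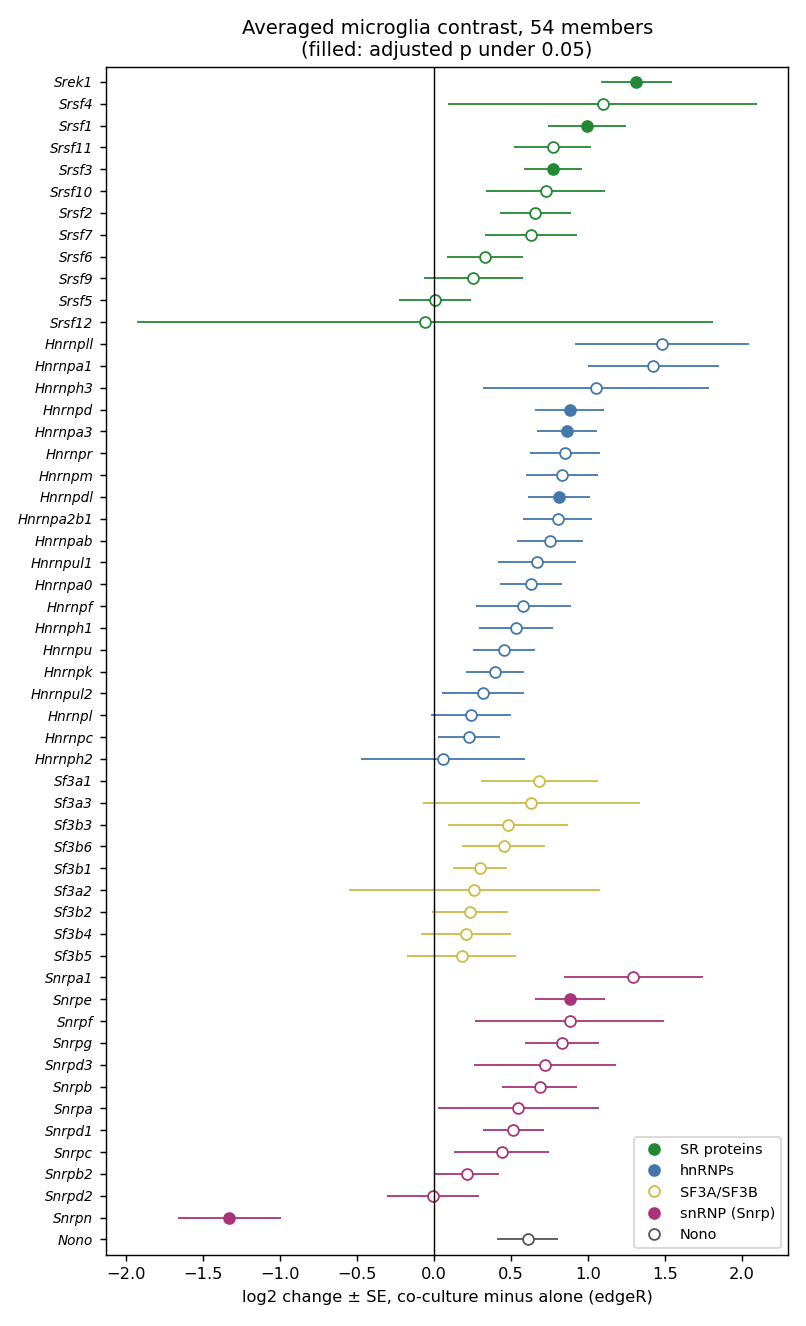
Fitted log2 change with its SE (x axis) of each of the 54 members (y axis, grouped by family) for co-culture minus neurons alone, averaged over untreated and loaded neurons; filled points passed an adjusted p of 0.05. The 51 points right of 0 include all hnRNPs and SF3 subunits, and Snrpn stands alone at -1.33.

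Srek1, an SR-related protein that modulates the activity of other SR proteins, had the smallest p of all members. It was at 120, 113, 98.7 and 93.6 CPM in untreated neurons alone and at 55.7, 63.1, 71.1 and 80.3 CPM in loaded neurons alone. With microglia it was at 203, 300, 209 and 94.8 CPM in untreated neurons and at 236, 264, 202 and 179 CPM in loaded neurons. Every loaded co-culture lay above every library of neurons alone, and 1 untreated co-culture lay within their range. The averaged log2 change was 1.31 ± 0.23 (SE; 2.49-fold; edgeR adjusted p = 0.00396).

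Srsf1 and Srsf3 are classical SR proteins that bind exons and also accompany mRNA out of the nucleus. Srsf3 was at 178, 120, 163 and 140 CPM in untreated and 135, 128, 126 and 134 CPM in loaded neurons alone. Its co-culture levels were 292, 273, 305 and 263 CPM in untreated and 183, 193, 177 and 257 CPM in loaded neurons. Within each fibril state no library with microglia overlapped one without, and the averaged log2 change was 0.77 ± 0.19 (SE; edgeR adjusted p = 0.0308). Srsf1 was at 93.9, 68.4, 57.1 and 112 CPM in untreated and 52.1, 68.7, 50.6 and 77.1 CPM in loaded neurons alone. With microglia it was at 137, 181, 227 and 103 CPM in untreated and 79.3, 134, 120 and 172 CPM in loaded neurons, so that only the untreated groups overlapped. Its averaged log2 change was 1.00 ± 0.25 (SE; edgeR adjusted p = 0.0367).

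The other SR members did not pass. Srsf2, known as SC35 and the most abundant of the family at a mean of 334 CPM over the 16 libraries, had an averaged log2 change of 0.66 ± 0.23 (SE; edgeR adjusted p = 0.138), and Srsf11, the next at 263 CPM, one of 0.77 ± 0.25 (SE; edgeR adjusted p = 0.104). Srsf7, Srsf10, Srsf6 and Srsf9 had averaged log2 changes of 0.63, 0.73, 0.33 and 0.26. Srsf5 was at 146 ± 53.5, 125 ± 5.23, 139 ± 18.5 and 134 ± 49.3 CPM in the 4 groups in the order above (SD, n = 4 each), with an averaged log2 change of 0.01 ± 0.23 (SE). Srsf4, at a mean of 24.5 CPM, had a count of 0 in 1 loaded library alone and in 1 co-culture of each kind, where the other 6 co-cultures were at 24.5 to 59.7 CPM. Those 3 libraries lacked 524, 290 and 666 genes whose mean count in the others was at least 100, in a range of 41 to 666 over the 16 libraries; the part of such gaps in the zeros was not tested. Srsf12 was scarce, with a count of 0 in 6 libraries. It ran from 0 to 14.2 CPM over the 16 libraries, and its fitted change carried an SE of 1.87.

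Among the hnRNPs, Hnrnpa3, Hnrnpdl and Hnrnpd rose. Hnrnpa3 belongs to the A/B group, whose best known member, Hnrnpa1, represses exons. It was at 188, 236, 235 and 248 CPM in untreated and 176, 260, 155 and 178 CPM in loaded neurons alone. In co-culture it was at 406, 408, 411 and 268 CPM in untreated and 280, 416, 445 and 410 CPM in loaded neurons, all 8 above the 8 without microglia. Its averaged log2 change was 0.87 ± 0.20 (SE; 1.82-fold; edgeR adjusted p = 0.0192).

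Hnrnpd, also called AUF1, binds AU-rich elements that set the life span of mRNA, and Hnrnpdl is its close relative. Hnrnpdl was at 197, 168, 243 and 145 CPM in untreated and 225, 142, 260 and 173 CPM in loaded neurons alone. With microglia it was at 379, 334, 338 and 270 CPM in untreated and 424, 336, 342 and 304 CPM in loaded neurons, again with no overlap between the 8 and the 8. The averaged log2 change was 0.81 ± 0.20 (SE; edgeR adjusted p = 0.0315). Hnrnpd was at 104, 79.6, 140 and 114 CPM in untreated and 89.6, 206, 161 and 151 CPM in loaded neurons alone, against 161, 322, 214 and 187 CPM and 203, 255, 292 and 270 CPM with microglia. The untreated groups did not overlap and the loaded groups did, by 1 library a side. Its averaged log2 change was 0.88 ± 0.23 (SE; edgeR adjusted p = 0.039).

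Several other hnRNPs lay just short of the threshold. Hnrnpr had an averaged log2 change of 0.85 (edgeR adjusted p = 0.0513), Hnrnpa2b1 one of 0.80 (edgeR adjusted p = 0.0578), Hnrnpm one of 0.83 (edgeR adjusted p = 0.06) and Hnrnpab one of 0.76 (edgeR adjusted p = 0.0618). Hnrnpa2b1, a relative of Hnrnpa1 that also sorts RNAs for transport, was at 56.2 to 112 CPM in the 8 libraries of neurons alone and at 119 to 179 CPM in the 8 co-cultures. Hnrnpa1 itself was at 29.9, 57.6, 98.6 and 106 CPM in untreated and 32.2, 43.8, 193 and 34.0 CPM in loaded neurons alone. Its co-culture levels were 215, 49.8, 215 and 255 CPM in untreated and 149, 269, 133 and 317 CPM in loaded neurons. A single library stood apart in loaded neurons alone and in untreated co-cultures, and the averaged log2 change of 1.42 ± 0.42 (SE) had an edgeR adjusted p of 0.0866. Hnrnpll, a scarce relative of Hnrnpl known from T cells, had the highest fitted change of all members, 1.48 ± 0.57 (SE; edgeR adjusted p = 0.179). There were 4 members with no overlap between the 8 libraries of each side, all higher with microglia, against 0.381% of all genes: Hnrnpa3, Hnrnpdl, Hnrnpa2b1 and Snrpd1.

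The 4 most abundant hnRNPs did not pass. Hnrnpa0, a single-exon relative of Hnrnpa1, had the highest mean level of all members, 743 CPM, and a log2 change of 0.63 ± 0.20 (SE; edgeR adjusted p = 0.1). Hnrnpu, which ties RNA to chromatin, followed at 417 CPM with 0.46 ± 0.20 (SE; edgeR adjusted p = 0.248). Hnrnpc, which coats uridine-rich stretches of introns, had 0.23 ± 0.20 (SE) at 412 CPM, and Hnrnpk 0.40 ± 0.19 (SE) at 374 CPM. Next in abundance came Hnrnpm at 311 CPM and Hnrnpa3 at 295 CPM, with the log2 changes of 0.83 and 0.87 given above. Among the less abundant hnRNPs, Hnrnpl (90.4 CPM) and Hnrnph2 (43.7 CPM) had 0.24 ± 0.26 and 0.06 ± 0.53 (SE). Hnrnph3 varied most of all members, and 1 loaded co-culture had a count of 0.

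No SF3 subunit passed, and none had an unadjusted p under 0.05 in the averaged comparison. Sf3b1, the subunit that clamps the branch point, was the steadiest of all 54 members, with a range of 0.85 log2 units over the 16 libraries. It was at 214 to 285 CPM in untreated neurons alone, 212 to 304 in loaded ones alone, 320 to 381 in untreated co-cultures and 261 to 320 in loaded co-cultures. The averaged log2 change was 0.30 ± 0.18 (SE; edgeR adjusted p = 0.414). Sf3b2, its partner subunit and the most abundant of the complex at 317 CPM, had 0.24 ± 0.25 (SE; edgeR adjusted p = 0.721). Changes of the 9 subunits ran from 0.18 for Sf3b5 to 0.68 for Sf3a1.

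Among the Sm proteins that form the ring, Snrpe (SmE) rose. It was at 82.9, 90.6, 63.0 and 89.5 CPM in untreated and 145, 122, 128 and 68.1 CPM in loaded neurons alone. With microglia it was at 163, 190, 214 and 193 CPM in untreated and 217, 185, 180 and 95.6 CPM in loaded neurons. Untreated groups did not overlap; a single low loaded co-culture overlapped the loaded neurons alone. The averaged log2 change was 0.89 ± 0.23 (SE; edgeR adjusted p = 0.0407). Its ring neighbours Snrpg (SmG) and Snrpf (SmF) had averaged log2 changes of 0.83 ± 0.24 (SE; edgeR adjusted p = 0.0672) and 0.88 ± 0.61 (SE; edgeR adjusted p = 0.52). Snrpd1, Snrpd2 and Snrpd3 had 0.52, -0.01 and 0.72. Of the proteins that belong to a single snRNP, Snrpa1 of U2 had 1.30 ± 0.45 (SE; edgeR adjusted p = 0.135), while Snrpa and Snrpc of U1 had 0.55 and 0.44 and Snrpb2 of U2 had 0.21.

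Snrpn was the only member that fell. Its product SmN takes the place of SmB, made from Snrpb, in the Sm ring of brain cells, and its gene lies at chr7:59982495-60140219 on the minus strand (mm10). Snrpn was at 190, 283, 353 and 566 CPM in untreated and 97.2, 112, 241 and 618 CPM in loaded neurons alone. With microglia it was at 123, 94.5, 174 and 118 CPM in untreated and 89.4, 97.5, 150 and 128 CPM in loaded neurons. The untreated groups did not overlap; in loaded neurons alone 2 libraries lay within the co-culture range and 2 above it. The averaged log2 change was -1.33 ± 0.33 (SE; 2.51-fold lower; edgeR adjusted p = 0.0363). Replicate 4 of each kind of neurons alone held the 2 highest values, and the averaged log2 change was -1.15 and -0.91 without the first and the second of them (edgeR adjusted p = 0.0778 and 0.0851). Without the 2 microglia-rich co-cultures it was -1.26 (edgeR adjusted p = 0.128). Those replicates also had the highest summed neuronal identity levels of their groups, 6906 and 6873 CPM, and the part of neuronal content in the Snrpn result was not tested. The annotation places another transcript, Gm38393, on the same strand at the end of Snrpn, and counts there may be shared.

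Snrpb was at 130 ± 52.1 and 150 ± 23.9 CPM without microglia (untreated, then loaded) and 233 ± 45.0 and 217 ± 78.4 CPM with them (SD, n = 4 each). Its averaged log2 change of 0.69 ± 0.24 (SE) did not pass (edgeR adjusted p = 0.143). The count of Snrpn per count of Snrpb was 2.77 ± 0.998 in untreated neurons alone and 1.90 ± 1.89 in loaded neurons alone, and 0.547 ± 0.088 and 0.575 ± 0.174 with microglia (SD, n = 4 each). All 8 co-cultures held fewer Snrpn than Snrpb counts, at 0.454 to 0.831, while neurons alone ran from 0.535 to 4.66, with 2 loaded libraries below 1. This ratio was formed after both genes had been seen and is a description.

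**Figure D3:**
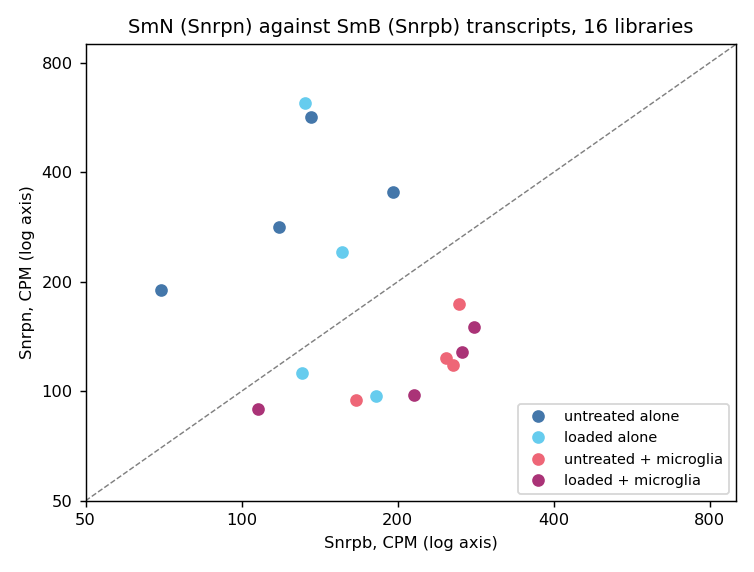
Levels of Snrpn (y axis) and Snrpb (x axis) in the 16 libraries, both in CPM on log axes, coloured by group; on the dashed line the levels are equal. All 8 co-cultures lie under the line and 6 of the 8 libraries of neurons alone lie above it.

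Promoter sequences were looked up for members that moved together, to show what lies around their RefSeq transcription starts. RefSeq entries (GRCm38.p6, from 250 bases before to 50 after a transcription start) were found for 48 of the 54 members, 65 promoters in all. The 4 below belong to the members that rose with the smallest p and have a single entry. Capitals mark matches, on either strand, to 5 motifs: CCGGAAG of ETS factors, the NRF1 motif, CCAAT of NF-Y, the GC box GGGCGG of Sp factors, and the TATA box TATAAA. The Srek1 promoter (chr13:103774559-103774858, minus strand) held 1 ETS motif and 1 GC box. The Hnrnpa3 promoter (chr2:75659009-75659308, plus strand) held 2 CCAAT motifs and 3 GC boxes, of which 2 overlap. The Srsf3 promoter (chr17:29032410-29032709, plus strand) held 1 CCAAT motif and 1 TATA box. The Hnrnpdl promoter (chr5:100039173-100039472, minus strand) held 3 GC boxes. GENCODE M21 starts this gene further upstream (chr5:100033577-100039664), so the whole window lies inside the gene as placed there.
Srek1: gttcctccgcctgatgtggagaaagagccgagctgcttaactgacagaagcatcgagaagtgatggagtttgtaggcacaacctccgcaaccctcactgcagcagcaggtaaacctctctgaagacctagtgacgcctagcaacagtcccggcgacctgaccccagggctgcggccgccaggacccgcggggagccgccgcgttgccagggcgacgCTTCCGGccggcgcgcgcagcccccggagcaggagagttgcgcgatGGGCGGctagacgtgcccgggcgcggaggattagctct
Hnrnpa3: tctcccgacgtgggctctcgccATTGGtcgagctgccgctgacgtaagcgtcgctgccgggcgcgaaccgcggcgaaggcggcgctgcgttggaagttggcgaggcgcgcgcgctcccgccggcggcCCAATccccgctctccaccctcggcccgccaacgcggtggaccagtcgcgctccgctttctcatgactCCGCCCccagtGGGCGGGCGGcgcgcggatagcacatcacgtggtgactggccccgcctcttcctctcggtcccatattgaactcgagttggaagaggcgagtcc
Srsf3: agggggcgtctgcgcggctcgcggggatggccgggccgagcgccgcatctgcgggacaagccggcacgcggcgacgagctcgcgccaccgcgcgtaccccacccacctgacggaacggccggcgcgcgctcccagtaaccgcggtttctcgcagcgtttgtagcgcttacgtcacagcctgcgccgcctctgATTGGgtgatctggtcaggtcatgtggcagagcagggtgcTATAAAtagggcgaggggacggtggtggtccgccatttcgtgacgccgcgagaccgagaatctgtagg
Hnrnpdl: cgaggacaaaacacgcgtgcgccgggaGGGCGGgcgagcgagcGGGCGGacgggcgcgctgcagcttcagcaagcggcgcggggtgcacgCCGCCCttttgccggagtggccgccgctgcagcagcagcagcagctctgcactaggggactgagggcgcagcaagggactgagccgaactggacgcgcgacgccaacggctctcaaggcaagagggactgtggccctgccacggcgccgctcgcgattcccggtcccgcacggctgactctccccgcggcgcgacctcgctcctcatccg

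The 4 shared no single motif. Over all 65 member promoters, 33.8% held the ETS motif, 16.9% the NRF1 motif, 44.6% the CCAAT motif, 67.7% the GC box and 10.8% the TATA box. Among 12719 promoters of tested protein-coding genes the shares were 16.6%, 9.68%, 37.6%, 63.0% and 6.82%, and among all 32851 promoters listed they were 8.86%, 4.60%, 37.4%, 35.7% and 13.6%. The median number of CG pairs was 25 in member promoters, 21 in those of tested protein-coding genes and 7 in all promoters. A match is a run of letters and not evidence of a bound site.

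Nono, a protein of nuclear paraspeckles that works as a dimer with Sfpq, was low in untreated neurons alone and higher in the other 3 groups. It was at 71.1, 83.7, 87.5 and 120 CPM in untreated neurons alone and at 231, 203, 209 and 176 CPM in loaded neurons alone. With microglia it was at 238, 156, 200 and 223 CPM in untreated and 226, 192, 235 and 195 CPM in loaded neurons. The untreated neurons alone stood below all 12 other libraries, which overlapped among themselves. None of the edgeR tests passed: the log2 change was 1.17 ± 0.28 (SE) for fibrils in neurons alone (edgeR adjusted p = 0.486), 1.17 ± 0.28 (SE) for microglia on untreated neurons (edgeR adjusted p = 0.111) and 0.05 ± 0.28 (SE) for microglia on loaded neurons (edgeR adjusted p = 0.99). Both of the first comparisons use the same untreated libraries. The interaction, which asks whether microglia acted differently on loaded neurons, was -1.12 ± 0.39 (SE; unadjusted p = 0.00908, edgeR adjusted p = 1.00). DESeq2 called Nono in both of the first comparisons, with adjusted p = 0.000434 for fibrils (1.32% of all genes called) and 0.000418 for microglia (2.25% called). In simulated data, drawn with edgeR's own dispersion estimates, 50.2% to 53.8% of DESeq2's calls were false, against 3.54% to 6.59% of edgeR's. That setting may favour edgeR. The shares cover all genes and were not worked out for genes as abundant as Nono. Its partner Sfpq was at a mean of 282, 206, 485 and 406 CPM in the 4 groups.

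Snrpg was nearest to Nono in this respect, at 48.1, 104, 59.4 and 63.1 CPM in untreated neurons alone, 127, 198, 164 and 76.7 in loaded neurons alone, 147, 144, 224 and 199 in untreated neurons with microglia and 193, 190, 160 and 147 in loaded neurons with microglia. Its log2 change was 1.38 ± 0.34 (SE) for microglia on untreated neurons (edgeR adjusted p = 0.129) and 1.04 ± 0.34 (SE) for fibrils in neurons alone (edgeR adjusted p = 0.632), with an interaction of -1.10 ± 0.48 (SE; edgeR adjusted p = 1.00). Only these 2 members had an unadjusted interaction p under 0.05, both lower, where 2.35% of all genes were lower and 1.67% higher at that p. The interaction was above 0 for 33 members and 49.6% of all genes. No gene of the 13139 passed the interaction test (0% called).

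**Figure D4:**
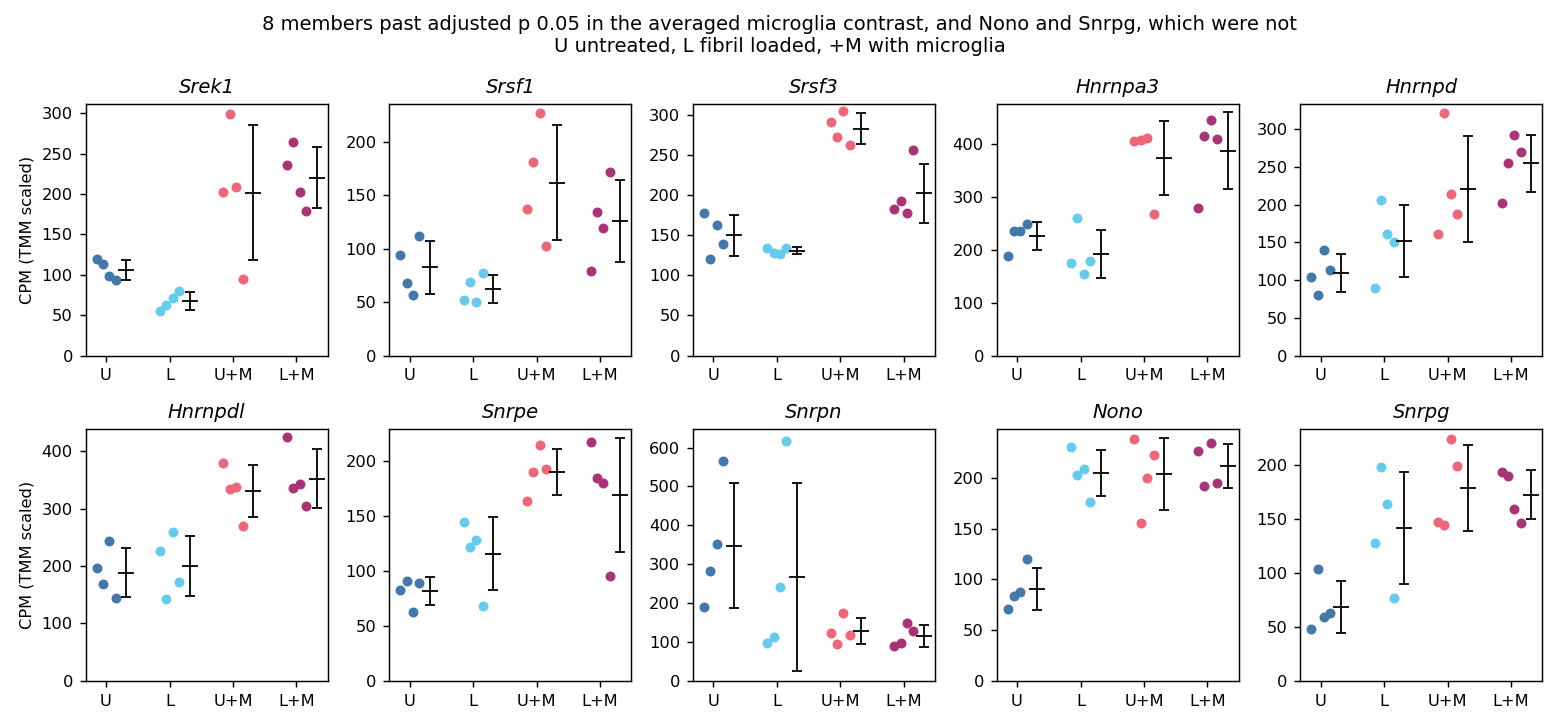
Levels in CPM (y axes, each from 0) of the 8 members called in the averaged microglia comparison and of Nono and Snrpg, in the 4 groups (x axes: U untreated, L loaded, +M with microglia); points are libraries, and bars show mean and SD. Co-cultures sit higher for 7 of the 8 and lower for Snrpn, and for Nono the untreated neurons alone stand below the other 12 libraries.

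Taken separately, microglia on untreated neurons gave 0 called members by edgeR, where 0.122% of all genes were called, 0.0685% as higher and 0.0533% as lower. The fitted change was above 0 for 50 of 54 members and 49.1% of all genes, with a median of 0.59 against -0.02 over all genes. An unadjusted p under 0.05 was reached by 17 higher members and 1 lower, where 4.6% of all genes were higher and 4.51% lower; DESeq2 called 5 members and 2.25% of all genes. The 4 libraries a side did not overlap for 15 members that were higher, against 3.77% of all genes: 9 hnRNPs, Snrpd1, Snrpe, Snrpg, Sf3b1, Srsf3 and Nono. The only lower member without overlap was Snrpn, at a log2 change of -1.45 ± 0.47 (SE; edgeR adjusted p = 0.332), against 3.81% of all genes. Srsf5, with -0.08 ± 0.33 (SE), had the next smallest p among the members below 0.

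In loaded neurons 1 member rose with microglia, Srek1, by a log2 change of 1.71 ± 0.33 (SE; edgeR adjusted p = 0.0388), where 0.114% of all genes were called, 0.0685% as higher and 0.0457% as lower. The fitted change was above 0 for 49 members and 48.7% of all genes, with a median of 0.64 against -0.03 over all genes. There were 14 higher members with an unadjusted p under 0.05, where 5.46% of all genes were higher, and 1 lower, Snrpn, where 6.26% were lower. For 11 members the groups did not overlap, all higher, against 3.41% of all genes higher and 2.91% lower: Srek1, Srsf1, Srsf3, Hnrnpa0, Hnrnpa2b1, Hnrnpa3, Hnrnpdl, Sf3a1, Snrpa1, Snrpd1 and Snrpf. Hnrnpa3 had the next smallest p (log2 change 1.01 ± 0.28, SE; edgeR adjusted p = 0.162). Snrpn had -1.20 ± 0.47 (SE; edgeR adjusted p = 0.331), and Srsf12, at 0 to 14.2 CPM alone and 0 to 7.64 CPM with microglia, was the other member with the smallest p below 0. The Srek1 call was lost without the 2 microglia-rich co-cultures (0 members called) and without any 1 of 7 libraries: replicate 2 of untreated neurons alone and replicates 1 to 3 of both loaded groups. The log2 change itself stayed at 1.66 to 1.91 over the other settings and at 1.61 to 1.80 with a library left out.

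**Figure D5:**
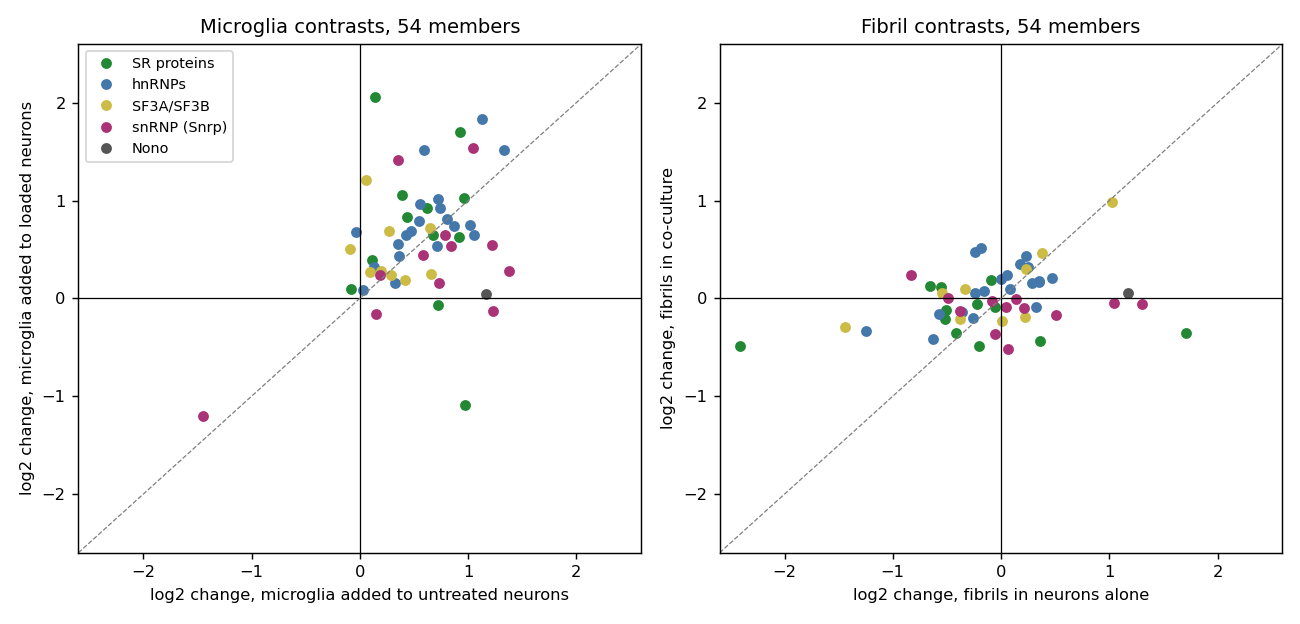
Fitted log2 change of each member in untreated neurons (x axis) against loaded neurons (y axis) for microglia, left, and in neurons alone (x axis) against co-culture (y axis) for fibrils, right; points are coloured by family and the dashed line marks equal change. Members lie mostly above 0 on both axes on the left, and on both sides of 0 on the right.

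Fibrils gave no called member. In neurons alone 0 of the 54 members and 0% of all genes were called by edgeR, 25 members and 47.5% of all genes lay above 0, and the median was -0.05 against -0.06 over all genes. At an unadjusted p under 0.05 there were 2 higher members, Nono and Snrpg, where 4.03% of all genes were higher, and 0 lower, where 2.89% were; DESeq2 called 1 member and 1.32% of all genes. Nono was the only higher member whose groups did not overlap, against 1.96% of all genes, and the lower ones were Srek1 and Srsf4, against 2.22%. Srek1, given above in every library, had a log2 change of -0.65 ± 0.32 (SE; edgeR adjusted p = 0.731). Hnrnpab, a nucleic acid binding protein of the A/B group, was at 210, 194, 301 and 212 CPM in untreated and 200, 143, 123 and 152 CPM in loaded neurons alone, with -0.57 ± 0.30 (SE; edgeR adjusted p = 0.782). Srsf4 was at 19.3, 38.7, 30.3 and 39.3 CPM in untreated and 5.35, 9.13, 0 and 9.50 CPM in loaded neurons alone.

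With microglia present, fibrils again gave 0 called members and 0% of all genes by edgeR, and 0 members by DESeq2, which called 0.989% of all genes. No member had an unadjusted p under 0.05, where 1.54% of all genes were higher and 2.14% lower at that p. There were 25 members above 0, against 47.1% of all genes. The median was -0.04, the same to this precision as over all genes. Smallest in p were Hnrnpc (0.43 ± 0.28) and Sf3b2 (0.46 ± 0.35) above 0, and Srsf3 (-0.48 ± 0.27) and Srsf6 (-0.43 ± 0.35) below it (log2 change ± SE), each with an edgeR adjusted p of 1.00. Srsf3 in loaded co-cultures, at 177 to 257 CPM, did not overlap untreated ones at 263 to 305 CPM, and neither did Sf3b1, likewise lower, or Hnrnpk, higher; 1.04% of all genes were lower and 0.906% higher without overlap.

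Averaged over both kinds of culture, fibrils gave 0 called members and 0% of all genes by edgeR, with 1 member and 1.96% of all genes called by DESeq2. Nono (0.61 ± 0.20, SE; edgeR adjusted p = 0.584) and Snrpg (0.50 ± 0.24, SE; edgeR adjusted p = 0.749) were the 2 members higher at an unadjusted p under 0.05, where 3.58% of all genes were, and 0 were lower. Hnrnpab (-0.37 ± 0.21, SE) and Srsf3 (-0.34 ± 0.19, SE) had the smallest p below 0. The SR members lay below 0 in 10 of 12 cases, with a median of -0.24 against -0.05 over all genes, and the hnRNPs above 0 in 13 of 20, with a median of 0.12; none passed.

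Other genes of the splicing machinery, which the naming rule of the members did not take, were counted in the same averaged microglia comparison. In it 48.6% of all genes lay above 0, 1.22% were called as higher and 0.974% as lower. Proteins of the U1 and U4/U6.U5 snRNPs and the LSm ring lay above 0 in 24 of 30 cases (median 0.40) with 0 called. Factors of the 3′ splice site and the catalytic steps lay above 0 in 22 of 24 (median 0.22) and the minor, U12-type spliceosome in 8 of 8 (median 0.45), with 0 called in both. Of 19 SR-related proteins and SR protein kinases, 16 lay above 0 (median 0.44) and 2 rose: Srrm1, a coactivator that bridges SR proteins (log2 change 0.94 ± 0.22, SE; edgeR adjusted p = 0.0277), and Acin1, a partner of the exon junction complex (1.12 ± 0.29, SE; edgeR adjusted p = 0.0399). In the list of paraspeckle and FET proteins, with Tardbp and Matr3, 7 of 9 lay above 0 and Sfpq rose (0.88 ± 0.20, SE; edgeR adjusted p = 0.0232). The snRNP assembly list had 8 of 14 above 0 (median 0.16) and the exon junction and nonsense-mediated decay list 11 of 15 (median 0.27), with 0 called in each. Smallest in p in the lists without a call were Luc7l (0.72 ± 0.25), Aqr (0.89 ± 0.28), Rnpc3 (0.74 ± 0.30) and Upf3b (0.87 ± 0.28) (log2 change ± SE), and Gemin4, which was at 0 in all 4 libraries of untreated neurons alone and at a mean of 0.439, 3.88 and 4.35 CPM in the other groups.

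Tissue-restricted splicing regulators were evenly split: 12 of 24 lay above 0 and 12 below, with a median of -0.12. Qk, a regulator of glial and above all oligodendrocyte RNA, was the only one called and rose from 347 ± 273 and 498 ± 207 CPM to 882 ± 388 and 989 ± 194 CPM (SD, n = 4 each; log2 change 1.17 ± 0.30, SE; edgeR adjusted p = 0.0417). At an unadjusted p under 0.05, 4 of the 24 were higher and 6 lower, where 7.72% of all genes were higher and 8.79% lower. Those next to Qk in p, named after their values were seen and none past the threshold, were Khdrbs2 (1.61 ± 0.69; edgeR adjusted p = 0.235) and Nova1 (1.26 ± 0.58; edgeR adjusted p = 0.277) above 0, and Rbfox1 (-2.26 ± 0.66; edgeR adjusted p = 0.0936) and Elavl2 (-1.35 ± 0.46; edgeR adjusted p = 0.127) below it (log2 change ± SE). In this comparison 11 of 12 oligodendrocyte lineage genes were called as higher, and all 12 lay above 0 (median 2.03). Of 10 cell division genes, 5 were called as higher and all 10 lay above 0 (median 1.52). Of 10 neuronal identity genes, 3 were called as lower and 9 lay below 0 (median -2.01). Over all genes 1.22% were called as higher and 0.974% as lower. The part of these 3 lists in the splicing results was not tested. In the fibril comparison averaged over culture 0 genes of these 8 splicing lists were called; the smallest p values per list belonged to Prpf38b, Puf60, Armc7, Srpk1, Celf2, Ewsr1, Prmt5 and Upf3a, with Celf2 at -0.80 ± 0.25 (SE; edgeR adjusted p = 0.584).

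Many SR and hnRNP genes limit their own output by splicing in an exon with a stop codon, which sends the transcript to nonsense-mediated decay. In GENCODE M21 (GRCm38, the same assembly as mm10), 10 of 12 SR members (83.3%) and 10 of 20 hnRNPs had a transcript annotated as a target of this decay, against 1 of 9 SF3 subunits and 4 of 12 snRNP proteins. Over all members it was 25 of 54 (46.3%), and among 12265 tested protein-coding genes 28.6%. A transcript with a retained intron was annotated for 74.1% of members and 59.1% of those genes. Reads from 3′ ends cannot tell such transcripts from the productive ones where they share an end. The called members lie apart in the genome except for 2: Srek1 at chr13:103739348-103774608, Srsf1 at chr11:88047373-88053755, Srsf3 at chr17:29032628-29043373, Hnrnpa3 at chr2:75659261-75669407, Snrpe at chr1:133603871-133610291, and Hnrnpd and Hnrnpdl close together at chr5:99955935-99978938 and chr5:100033577-100039664, besides Snrpn. The strand setting of the counting is not given in the sources used here, and 6 members overlap a gene on the opposite strand in their last 1000 bases (Hnrnpab, Hnrnph3, Hnrnpu, Snrpf, Srsf2 and Srsf4), so their counts may include reads of that neighbour.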

How the data were processed

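Members, lists and tests were chosen with earlier results of these data known. For each of 16 libraries the authors deposited a raw count for every gene symbol; a kit that reads 3′ ends was used, per the labels' protocols. STAR, Partek, DESeq2 and the mm10 build are named, without versions or roles, per the submitters' processing notes; how reads were counted, strand setting, annotation and use of molecular identifiers are not given in the sources used here. A second deposited table holds the authors' normalized values, a score rounded to whole numbers; multiplying each library's raw counts by its own constant, 0.641 to 1.46, gave 99.99% of these values to within 0.6.

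Counts were analysed with edgeR 4.0.16 in R 4.3.3. The function filterByExpr, at a minimum count of 10 and total of 15, left 13139 genes. After TMM scaling, all 16 libraries entered a single quasi-likelihood fit with robust dispersions and 4 group means. CPM use the TMM scaling, log2 CPM a prior count of 2, and a SE is the log2 change divided by the root of the F statistic. p-values were adjusted over all genes within a comparison. DESeq2 1.42.0, limma 3.58.1, other scalings, no filter, a replicate block and left-out libraries were alternatives. Named members were those called in any comparison, the 2 with the smallest p in each direction, the 2 most abundant of each family, Nono, and the widest and narrowest in range; of other lists, called genes and the smallest p. Further members were named for their role or place in their family after their values were seen. Simulated data (200 genes changed, 5 simulations) were drawn with edgeR's own dispersion estimates. There edgeR recovered 0.8% of genes changed 2-fold for microglia on untreated neurons and 5.2% for the averaged comparison. At 4-fold it recovered 14.0% and 31.2%. These shares cover all genes, scarce ones included, and were not worked out for genes as abundant as most members. A member missing the threshold is thus not evidence of no change. Counts are not stated to be free of PCR copies, so counting error understates the true error. No 2 libraries of a group were alike within sampling noise (chi-square of 69.2 to 259 per degree of freedom). Replicate numbers follow accession order. Positions come from GENCODE M21 and promoters from RefSeq. Python 3.11.15, pandas 2.3.3 and matplotlib 3.10.9 were used. No splice junction or exon-level data were analysed here.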

Additional observations from a re-analysis of the deposited data

Results flagged for a closer look

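All 54 members and their summed level were checked in each group. In 20 of these 220 sets of 4 values, 1 library stood far from the other 3 on the log2 scale (by Dixon's criterion for a single extreme value); chance alone gives about 1 in 20.

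Of the members called in a comparison, Hnrnpa3 was at 268 CPM in replicate 4 of untreated neurons with microglia, against 406 to 411 CPM; even this value lay above the 8 libraries of neurons alone. Among the other hnRNPs, Hnrnph3 was at 4.72 CPM in replicate 1 of loaded neurons alone, against 21.6 to 29.0 CPM. In replicate 1 of loaded neurons with microglia Hnrnph3 and Srsf4 were both at 0 CPM, against 57.4 to 107 and 24.5 to 47.5 CPM, and Snrpa1 was at 75.5 CPM, against 40.0 to 42.7 CPM. That library is 1 of the 2 rich in microglial transcripts and also lacks the most genes of all 16, with 666 at 0 whose mean count in the others was at least 100; 2 of these are members, and the part of either in these values was not tested. Srsf4 was also at 0 CPM in replicate 3 of loaded neurons alone, against 5.35 to 9.50 CPM, and in replicate 4 of untreated neurons with microglia, against 32.4 to 59.7 CPM. Hnrnpa1 was at 193 CPM in replicate 3 of loaded neurons alone, against 32.2 to 43.8 CPM, and at 49.8 CPM in replicate 2 of untreated neurons with microglia, against 215 to 255 CPM.

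In untreated neurons alone, Hnrnpk was at 239 CPM in replicate 1, against 305 to 321 CPM, and Snrpc in the same library at 58.6 CPM, against 84.8 to 90.9 CPM. Sf3a2 was at 0.924 CPM in replicate 2, against 8.10 to 11.4 CPM. In replicate 4 of that group Snrpd2 was at 272 CPM, against 110 to 123 CPM, and Snrpd3 at 6.24 CPM, against 29.6 to 38.6 CPM. Snrpf was at 0.274 CPM in replicate 3 of loaded neurons alone, against 19.9 to 27.5 CPM. In untreated neurons with microglia, Hnrnph2 was at 29.2 CPM in replicate 4, against 51.8 to 57.1 CPM, Snrpb at 166 CPM in replicate 2, against 248 to 263 CPM, and Snrpc at 265 CPM in replicate 3, against 84.9 to 97.4 CPM. In loaded neurons with microglia, Sf3b3 was at 20.6 CPM in replicate 4, against 44.9 to 52.1 CPM, and Srsf12 at 7.64 CPM in replicate 3, where the other 3 were at 0 to 0.158 CPM.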

How the results depend on the processing

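The 8 members called in the averaged microglia comparison (2.19% of all genes) became 17 with library totals (3.21% of all genes), 18 with DESeq2 (8.33%) and 13 with limma-voom (4.96%). Without replicate 1 of both co-cultures, the microglia-rich libraries, 5 were called (1.12% of all genes). With any single library left out, 2 to 7 members and 158 to 333 of all genes were called. Library totals moved the median of all genes from -0.03 to 0.18 and that of the members to 0.83, and gave 17 higher and 0 lower calls, Snrpn no longer among them. For microglia on untreated neurons, where edgeR called 0 members and 0.122% of all genes, 3 members were called with library totals (0.381% of all genes; median 0.79) and 5 with DESeq2 (2.25%). On loaded neurons the 1 call (0.114% of all genes) became 3 with DESeq2 (3.74%). It became 0 with only the compared groups or without replicate 1 of both co-cultures (0.125%). With a library left out, 0 to 1 members and 1 to 27 of all genes were called. The median of the members on loaded neurons was 0.85 with library totals. DESeq2 called 1 member for fibrils in neurons alone (1.32% of all genes) and 1 averaged over culture (1.96%), where edgeR called 0. The log2 change of Srsf5 for microglia on untreated neurons turned from -0.08 to 0.12 with library totals and 0.020 without replicate 1 of both co-cultures, and ran from -0.23 to 0.18 with a library left out. That of Srsf12 turned to 0.13 and 0.16 in the averaged comparison under those settings and ran from -2.54 to 1.12 with a library left out, and from -6.06 to 1.26 on loaded neurons; the causes were not tested.

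Replicate numbers follow accession order. Samples with the same number correlated in their deviations at -0.11 to 0.22, and those with different numbers at -0.23 to 0.16. Codes in the sample titles run in neighbouring sets by this number, and the labels do not say what such a set shares. The main test did not take them as pairs, so a shared source, if there was one, was ignored. A replicate block gave 10 calls in the averaged microglia comparison (2.79% of all genes), all 8 of the main calls among them. Levels near 0, as for Srsf12, rest on few counts. In the simulated data a change of 2-fold was rarely recovered over all genes, scarce ones included. This was not worked out for genes as abundant as most members.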

Other observations

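Members not described above gave the following levels. Hnrnph1 and Hnrnpf, which bind runs of guanines, were at 142 ± 45.2 and 123 ± 45.6 CPM in untreated neurons alone, 111 ± 43.9 and 79.8 ± 38.6 in loaded neurons alone, 191 ± 32.5 and 171 ± 34.3 in untreated neurons with microglia and 173 ± 39.9 and 129 ± 64.3 in loaded neurons with microglia (SD, n = 4 each). Hnrnpk, which binds cytidine-rich RNA and DNA, was at 294 ± 37.4, 350 ± 107, 379 ± 25.5 and 472 ± 53.5 CPM in the same order (SD, n = 4 each). Hnrnpul1 was at 113 ± 47.8, 101 ± 34.9, 165 ± 33.1 and 174 ± 48.9 CPM, and Hnrnpul2 at 112 ± 39.0, 95.4 ± 42.6, 110 ± 33.7 and 152 ± 40.4 CPM (SD, n = 4 each). Their averaged log2 changes with microglia were 0.53, 0.58, 0.40, 0.67 and 0.32 for Hnrnph1, Hnrnpf, Hnrnpk, Hnrnpul1 and Hnrnpul2, and none passed. Among the scarcer SF3 subunits, Sf3a3 was at 0.137 CPM in 1 library of loaded neurons alone and at 3.75 to 53.0 CPM in the other 15, and Sf3a2 ran from 0.924 to 40.1 CPM. Snrpa, a protein of the U1 snRNP, was at 11.2 ± 6.91 CPM in untreated neurons alone (SD, n = 4) and at 12.2 to 49.3 CPM in the other 12 libraries; its log2 change for fibrils in neurons alone was 1.30 ± 0.75 (SE; edgeR adjusted p = 0.827).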
